A study of Bos taurus with 52 samples.

Results

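The 10 genes described here encode secreted proteins of the extracellular matrix: CILP, the fibrillins FBN1 and FBN2, elastin (ELN), fibronectin (FN1), the thrombospondins THBS1 and THBS2, and SPARC, periostin (POSTN) and tenascin C (TNC). They were chosen by name from 31651 named genes in a table of read counts, with results of these data known: how their levels changed with pregnancy in endometrium, and how that change differed between fertility classes. Those comparisons are therefore given as descriptions, without p-values. Comparisons with infertile heifers and within conceptuses were not part of the choice and are given with their tests. Those with infertile heifers still share non-pregnant libraries with the comparisons that were, and are not independent of the choice.

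The study sequenced RNA from the endometrium of heifers sorted into 3 fertility classes, infertile (IF), subfertile (SF) and high fertile (HF), and from conceptuses of day 17. Endometrium was represented by 25 animals, 5 in each group: heifers without pregnancy of the HF, SF and IF classes (NP-HF, NP-SF and NP-IF) and heifers at day 17 of pregnancy of the HF and SF classes (P-HF and P-SF). The labels name no treatment for these heifers, and neither their ages nor the sampling day of those without pregnancy were given in the sources used here. Of the 27 conceptuses, 10 were recovered from SF recipients and 17 from HF recipients, the latter labelled long (10) or short (7), and some recipients gave more than 1 conceptus. Of the pregnant endometrium animals, 8 also gave a conceptus.

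Fibrillins polymerise into microfibrils, which scaffold elastin and hold latent TGF-beta in the matrix, and fibronectin is assembled by integrins into fibrils on which other matrix proteins are laid down. Matricellular proteins such as SPARC, periostin, tenascin C and the thrombospondins are secreted into the matrix but mainly tune how cells attach to it and how growth factors reach them. CILP, named for the intermediate layer of cartilage, is a matrix glycoprotein known to damp the signalling of TGF-beta and IGF1. In ruminants the uterine stroma that makes most of this matrix is remodelled through the oestrous cycle and in early pregnancy, before the elongating conceptus attaches.

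The endometrium libraries held 17.1 to 27.3 M counted reads each, and the conceptus libraries 20.5 to 47.0 M. ISG15, which the uterus induces in response to interferon tau from the conceptus, was at normalised read counts (CPM, reads scaled to library size) of 431 to 1483 in the 10 pregnant endometrium libraries and at 3.89 to 62.5 CPM in the 15 non-pregnant ones. The conceptus genes PAG2 and TKDP1 had no read in 21 and 22 of the 25 endometrium libraries. Other trophectoderm markers were detected there at low levels: IFNT2 at 1.15 to 3.899 CPM, CDX2 at 0 to 0.566 CPM and ELF5 at 0 to 5.085 CPM. The summed level of these 5 markers was 3.27 to 5.978 CPM in NP-HF and 2.408 to 4.325 CPM in P-HF. It was 2.163 to 4.183 CPM in NP-SF and 2.459 to 4.409 CPM in P-SF. Earlier results of these data placed P-HF replicate 1 and P-SF replicate 5 nearer to the other class than to their own, and the results that rest on them are also given without both. Leaving both out favours a difference between the classes, so it is no independent check on one. Endometrium is a mixed tissue, and in bulk libraries fewer cells of a type and less RNA per cell cannot be told apart.

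CILP was highest in non-pregnant HF endometrium and lowest in pregnant HF endometrium, with the other 3 groups between them. The 5 NP-HF libraries held 11.01, 10.0, 6.74, 6.998 and 7.05 CPM, and the 5 P-HF libraries 2.93, 3.14, 3.16, 3.53 and 4.36 CPM. In NP-SF the values were 5.25, 5.57, 4.76, 4.82 and 5.85 CPM, and in P-SF 5.37, 5.56, 6.002, 6.54 and 4.57 CPM. NP-IF held 6.11, 4.42, 6.32, 5.88 and 5.64 CPM. Every NP-HF library was above, and every P-HF library below, all libraries of the other groups, while NP-SF, NP-IF and P-SF overlapped throughout. Group means were 8.37 ± 1.999 (SD, n = 5) CPM in NP-HF, 3.42 ± 0.57 in P-HF, 5.25 ± 0.47 in NP-SF, 5.61 ± 0.74 in P-SF and 5.67 ± 0.75 in NP-IF. CILP was thus 2.44-fold lower with pregnancy in HF heifers, a log2 fold change of -1.28 ± 0.16 (SE), and 1.07-fold higher in SF heifers, at 0.10 ± 0.16. These levels rest on 50 to 267 reads per endometrium library. Without P-HF replicate 1 and P-SF replicate 5 the log2 fold changes were -1.23 in HF and 0.16 in SF.

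**Figure D1:**
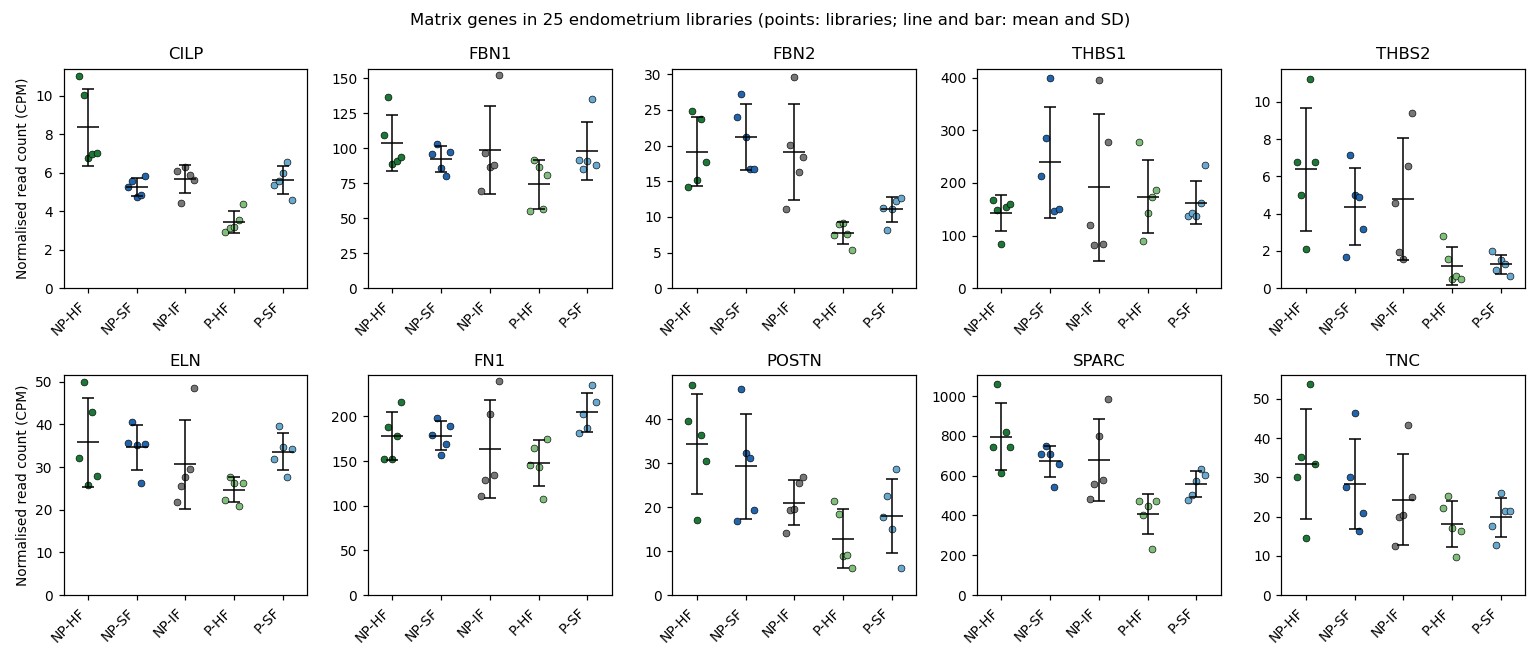
Normalised read counts (CPM, linear axes from 0) of the 10 matrix genes in the 25 endometrium libraries by group, with points for libraries and a line and bar for the mean and SD of 5 animals. For CILP the 5 NP-HF libraries (6.74 to 11.01 CPM) lie above and the 5 P-HF libraries (2.93 to 4.36 CPM) below all others, whereas the 5 groups overlap for THBS1.

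A gene was called changed where edgeR's quasi-likelihood test, adjusted by Benjamini-Hochberg over 19606 genes, gave an adjusted p under 0.05. All 10 genes passed the filter on low counts in endometrium. In P-HF against NP-HF, 6 of the 10 genes were called lower (CILP, FBN2, THBS2, POSTN, SPARC and ELN) and none higher, where 10.6% of all genes were called lower, 10.2% higher and 20.8% either way. The 10 genes had a median log2 fold change of -0.93, against -0.01 over all genes, and THBS1 alone had a positive value. In P-SF against NP-SF, 1 of the 10 genes, FBN2, was called lower, where 0.887% of all genes were called lower and 4.07% either way, and the median was -0.39. Because these contrasts chose the genes, nothing is read from the counts.

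Among the microfibril genes, FBN2, the fibrillin best known from fetal and remodelling tissue, was lower with pregnancy in both classes. Its 5 NP-HF values were 14.3, 24.8, 15.2, 23.8 and 17.7 CPM and its 5 P-HF values 7.44, 9.05, 9.16, 7.58 and 5.42 CPM. In SF heifers it went from 24.0, 27.3, 21.3, 16.6 and 16.7 CPM in NP-SF to 11.2, 8.19, 11.1, 12.3 and 12.6 CPM in P-SF. In neither class did pregnant and non-pregnant libraries overlap. Its log2 fold changes were -1.31 ± 0.22 in HF and -0.94 ± 0.22 in SF, so the HF and SF changes of FBN2 lay closer to each other than those of CILP.

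FBN1, the main fibrillin of adult microfibrils, was at 88.8 to 136 CPM in NP-HF and 54.9 to 91.6 CPM in P-HF. In SF heifers its ranges were 80.4 to 103 CPM in NP-SF and 84.9 to 135 CPM in P-SF, and both pairs of groups overlapped. The log2 fold changes were -0.49 ± 0.18 in HF, not called, and 0.09 ± 0.18 in SF. The SF value rested on P-SF replicate 4, the highest of its group, and was -0.06 without that library. ELN, the core of elastic fibres, was at 25.9 to 49.98 CPM in NP-HF and 20.9 to 27.6 CPM in P-HF, a log2 fold change of -0.53 ± 0.19. Its call was not firm: 12 of 17 alternative analyses lost it, including the one without P-HF replicate 1 and P-SF replicate 5 (-0.50). In SF heifers ELN was at 26.2 to 40.5 CPM without pregnancy and 27.7 to 39.5 CPM with it (-0.04 ± 0.19).

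SPARC, a collagen-binding matricellular protein, had its highest mean in NP-HF and its lowest in P-HF, as had CILP, FBN1, THBS2, ELN, POSTN and TNC. Its NP-HF values were 742, 1062, 612, 822 and 744 CPM and its P-HF values 474, 404, 448, 232 and 474 CPM, with no overlap. In NP-SF they were 706, 748, 707, 543 and 656 CPM, and in P-SF 476, 505, 575, 634 and 604 CPM, with overlap. SPARC was 1.96-fold lower with pregnancy in HF heifers (log2 -0.97 ± 0.19) and 1.203-fold lower in SF heifers (-0.27 ± 0.19). In HF heifers 3 of the 10 genes (CILP, FBN2 and SPARC) had every pregnant library below every non-pregnant one, as had 5.94% of all genes. In SF heifers FBN2 alone had, as had 1.66% of all genes.

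THBS2, a thrombospondin that restrains blood vessel growth and shapes collagen fibrils, had the largest log2 fold changes of the 10 genes in both classes, at low counts. The NP-HF libraries held 6.76, 4.99, 2.11, 11.2 and 6.77 CPM and the P-HF libraries 2.82, 1.57, 0.51, 0.65 and 0.47 CPM. P-HF replicate 1, the highest of its group, overlapped NP-HF replicate 3, the lowest. SF heifers ranged from 1.66 to 7.13 CPM without pregnancy and from 0.63 to 2.01 CPM with it. The log2 fold changes were -2.44 ± 0.56 in HF and -1.76 ± 0.55 in SF, the latter not called. Between 12 and 50 reads stood behind the P-HF values, and without P-HF replicate 1 and P-SF replicate 5 the HF change was -3.04.

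POSTN, which binds collagen and tenascin, was at 17.2 to 47.9 CPM in NP-HF and 6.12 to 21.5 CPM in P-HF (log2 -1.43 ± 0.37). In SF heifers it was at 16.8 to 46.8 CPM and 6.22 to 28.7 CPM (-0.70 ± 0.37, not called). TNC, an anti-adhesive glycoprotein of remodelling tissue, had 14.6 to 53.8 CPM in NP-HF and 9.71 to 25.2 CPM in P-HF, and its changes of -0.88 ± 0.33 in HF and -0.51 ± 0.33 in SF were not called. The pregnant and non-pregnant ranges of both genes overlapped in each class.

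THBS1, an activator of latent TGF-beta, varied widely among animals of a group. It ranged from 83.2 to 168 CPM in NP-HF and 89.0 to 277 CPM in P-HF, from 146 to 400 CPM in NP-SF and 136 to 234 CPM in P-SF, and from 81.5 to 396 CPM in NP-IF. All 5 ranges overlapped, and the pregnancy changes were 0.29 ± 0.38 in HF and -0.56 ± 0.38 in SF. FN1, the fibrillar adhesion protein, was at 152 to 217 CPM in NP-HF and 108 to 175 CPM in P-HF. In SF heifers it was at 156 to 198 CPM without pregnancy and 182 to 235 CPM with it. Its changes were small in both classes, -0.27 ± 0.17 in HF and 0.20 ± 0.17 in SF, and not called.

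The difference between classes in the pregnancy change (SF change minus HF change, log2) was positive for 9 of the 10 genes, with a median of 0.53 against 0.01 over all genes. It was 1.38 ± 0.22 for CILP, a 2.60-fold ratio between the classes' changes, and it passed the threshold for a call, as did 0.0051% of all genes; since this contrast chose CILP, the call is a description and nothing is read from it. The next differences were 0.73 ± 0.52 for POSTN, 0.70 ± 0.27 for SPARC, 0.68 ± 0.76 for THBS2, 0.57 ± 0.26 for FBN1, 0.49 ± 0.26 for ELN and 0.47 ± 0.23 for FN1. FBN2 and TNC were at 0.37, with SE of 0.31 and 0.47, and THBS1 at -0.85 ± 0.54. The call for CILP held in 9 of 27 alternative analyses, over which its value ran from 1.26 to 1.48. It was lost without P-HF replicate 1 and held without P-SF replicate 5, and it held without both, at 1.40. Leaving out both favours a class difference by the way they were picked, so the last value is no independent check.

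**Figure D2:**
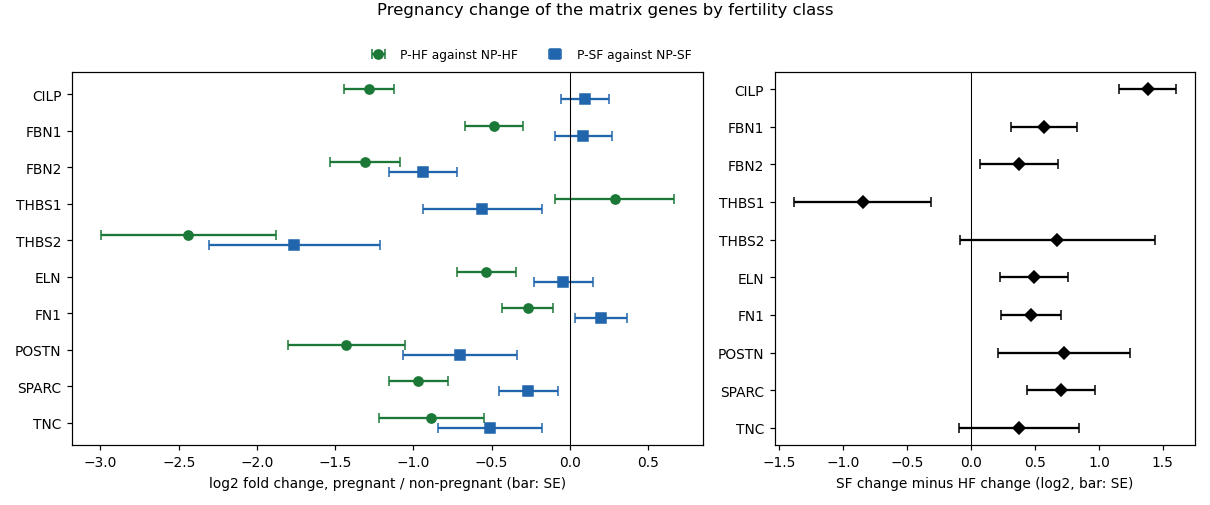
Left, log2 fold change of pregnant over non-pregnant endometrium for each of the 10 genes in HF (circles) and SF (squares) heifers, with SE bars. Right, the SF change minus the HF change (log2, SE bars). CILP shows -1.28 in HF against 0.10 in SF, FBN2 is below 0 in both, and THBS1 is the gene whose difference is negative.

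Both ends of the contrast contributed to the CILP difference. In pregnant endometrium CILP was 1.63-fold higher in SF than in HF heifers (log2 0.71 ± 0.16), and in non-pregnant endometrium 1.59-fold lower (-0.67 ± 0.16), in each case without overlap. In P-SF against P-HF, edgeR called none of the 10 genes and none of all genes (0.0%), with 1984 genes at an unadjusted p under 0.05. DESeq2 called 1 of the 10, CILP, and 96 genes in all, and edgeR without P-HF replicate 1 and P-SF replicate 5 also called CILP (0.72). The latter setting left out libraries picked for lying nearer the other class, so it is no independent check. CILP, ELN, FN1 and SPARC had every P-SF library above every P-HF library, as had 1.17% of all genes. ELN stood at 27.7 to 39.5 CPM against 20.9 to 27.6, FN1 at 182 to 235 against 108 to 175, and SPARC at 476 to 634 against 232 to 474. For each of the 4 the gap between the groups was small beside their ranges. The median over the 10 genes was 0.45.

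In NP-SF against NP-HF, edgeR called none of the 10 genes and none of all genes (0.0%), with 709 at an unadjusted p under 0.05, and DESeq2 called 1 gene. CILP was the only one of the 10 whose NP-SF libraries all lay below the NP-HF libraries, as had 0.301% of all genes. The median over the 10 genes was -0.20. THBS1 had a positive value of 0.75 ± 0.38, with overlapping ranges. The class contrasts share their libraries with the pregnancy contrasts above.

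Genes of the same pathways outside the 10 were counted over lists drawn up with these results known. Over all genes, 10.6% were called lower and 10.2% higher in P-HF against NP-HF, and 4.07% either way in P-SF against NP-SF. Of 25 other genes of elastic fibre and microfibril assembly, 13 were called lower and none higher in P-HF against NP-HF (median log2 -0.49), and none was called in P-SF against NP-SF (median -0.17). EMILIN2, an elastin-interface glycoprotein, was at 52.2 CPM in P-HF on average against 121 in NP-HF (-1.21 ± 0.17). The microfibril component MFAP2 was at 20.5 against 37.5 CPM (-0.87 ± 0.17). LOXL1, an elastin cross-linking enzyme, was at 10.1 against 18.3 CPM (-0.86 ± 0.18), and THSD4, which promotes microfibril assembly, at 2.76 against 5.25 CPM (-0.93 ± 0.21). The ranges of EMILIN2, MFAP2 and THSD4 did not overlap, and those of LOXL1 overlapped at their edge (8.11 to 14.1 and 13.98 to 26.2 CPM).

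Of 19 other matricellular genes tested, 6 were called lower and 2 higher in HF heifers (median -0.57), and none in SF heifers (median -0.22). SMOC2, a SPARC relative, averaged 147 CPM in P-HF against 308 in NP-HF (-1.06 ± 0.16), and SPARCL1, another relative, 531 against 946 CPM (-0.83 ± 0.13). The 2 genes called higher belong to the CCN family. Of all genes, 10.2% were called higher and 10.6% lower in that contrast, and nothing is read from the 2 calls as a count. CTGF (CCN2), a growth factor modulator, averaged 955 CPM in P-HF against 411 in NP-HF (1.22 ± 0.27), and WISP3 3.48 against 1.34 CPM (1.37 ± 0.28). Other CCN genes, named after their values were seen, had negative values: WISP1 was called lower (-1.05 ± 0.27), and CYR61 (-1.03 ± 0.42), NOV (-1.01 ± 0.43) and WISP2 (-0.51 ± 0.36) were not called.

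Receptors for these proteins showed no common direction: of 15 tested in HF heifers, calls went up for 2 and down for 2 (median -0.01). Of all genes, 20.8% were called either way in that contrast, so nothing is read from the receptor count. ITGB5 and ITGB6, integrin subunits that pair with the alpha V chain, had log2 fold changes of 0.94 ± 0.27 and 0.99 ± 0.31, and the collagen receptor DDR2 and the syndecan SDC2 -0.63 ± 0.17 and -0.72 ± 0.22. In SF heifers CD47, a thrombospondin receptor, was the single call (0.41 ± 0.10). Of 12 TGF-beta, BMP and IGF genes, 4 were called lower in HF heifers (median -0.38) and none in SF heifers (median -0.17). Of all genes, 10.6% were called lower in HF heifers and 4.07% either way in SF heifers. IGF1, a growth factor whose signalling CILP is known to damp, averaged 49.3 CPM in P-HF against 118 in NP-HF (-1.26 ± 0.26), and TGFB2 8.34 against 19.2 CPM (-1.21 ± 0.36). The co-receptor TGFBR3 and the ligand BMP4 had -0.62 ± 0.20 and -0.47 ± 0.15. No gene of these 4 lists other than CILP was called for a difference between classes. A call in one class alone does not show that the classes differed. The class difference was positive for 22 and negative for 3 of the 25 other elastic fibre and microfibril genes (median 0.375). Of the 19 other matricellular genes it was positive for 14 and negative for 5 (median 0.288). Picked after being seen, LOXL4 (2.323 ± 0.567) and TNR (2.832 ± 0.945) had larger values than CILP, with larger SE.

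**Figure D3:**
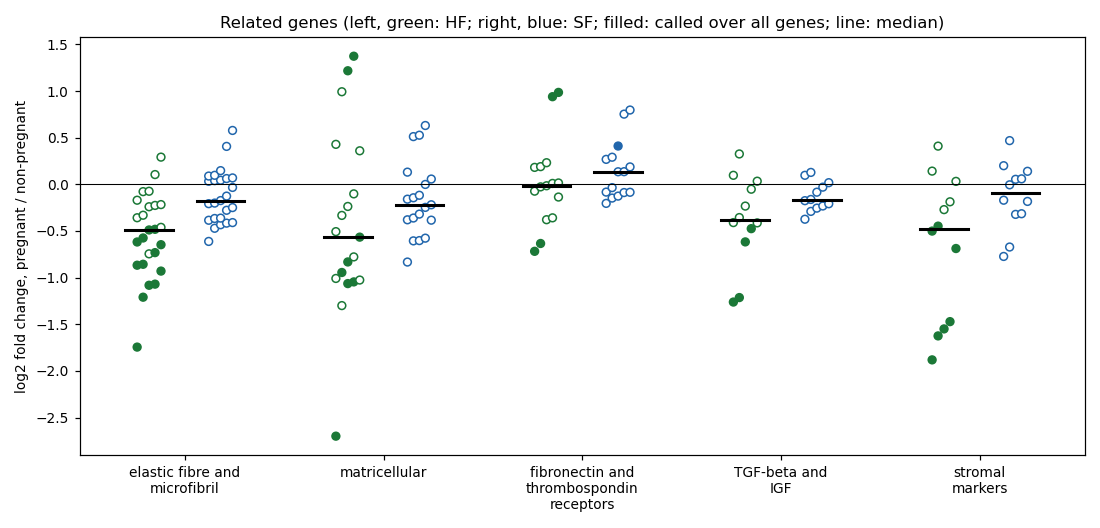
Log2 fold change of pregnant over non-pregnant endometrium for genes of 5 lists without the 10 genes, HF heifers on the left (green) and SF heifers on the right (blue) of each list, filled where called over all genes, with a line at the median. Calls in HF heifers lie below 0 in the elastic fibre and microfibril list (13 of 25 genes) and among stromal markers (7 of 12), and on both sides of 0 among matricellular genes (6 lower, 2 higher).

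Some stromal markers were also lower in P-HF. Of 12 stromal markers, 7 were called lower in P-HF against NP-HF (4 of them fibrillar collagens, which are matrix genes themselves) and none in P-SF against NP-SF. The other 5 were not called and are listed with their values in view: PDGFRA had 0.41 ± 0.20, NR2F2 0.14 ± 0.15, HAND2 0.03 ± 0.18, LUM -0.19 ± 0.14 and DCN -0.27 ± 0.14. Collagens and DCN contributed most to the summed level of all 12. That level was 13410 to 25800 CPM in NP-HF, 11610 to 17410 in NP-SF and 10420 to 18140 in NP-IF. In P-HF it was 5625 to 9016 CPM and in P-SF 10530 to 13180 CPM. The collagen COL3A1 averaged 1887 CPM in P-HF against 6954 in NP-HF (-1.88 ± 0.24). The SF change minus the HF change was positive for 11 of the 12 markers (median 0.459) and called for none. For the 4 collagens it was 1.303 ± 0.337 (COL1A1), 1.235 ± 0.315 (COL1A2), 1.21 ± 0.335 (COL3A1) and 0.699 ± 0.32 (COL5A1). Over 9 epithelial markers the sums were 1109 to 1403 CPM in NP-HF and 1595 to 1870 in P-HF, and 3 were called higher. Immune markers were called higher for 3 of 8, endothelial markers lower for 2 of 9 and smooth muscle markers for 0 of 8. In P-HF against NP-HF 10.2% of all genes were called higher and 10.6% lower, and such small counts are descriptions. Of 5 cartilage markers, 3 were called lower, at summed levels of 7.30 to 10.0 CPM in NP-HF and 1.44 to 5.25 CPM in P-HF. The part of cell composition in the changes of the matrix genes was not tested.

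Within groups, the 10 genes did not vary as a single block. Over the deviations of the 25 libraries from their group means, SPARC went with FN1 (r = 0.80), ELN (0.69) and FBN1 (0.66), and POSTN with THBS2 (0.66). CILP stood apart from these pairs, its correlation with the other 9 genes running from -0.15 for FBN2 to 0.34 for FBN1. These correlations share library depth and tissue makeup and are given as descriptions. NP-HF replicate 3 was below its group mean for all 10 genes and the lowest of its group for 8, and NP-SF replicate 2 was above its group mean for all 10.

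The genes whose level was most like that of CILP over the 25 libraries, among 13484 genes averaging 5 CPM or more, were TMEM119 (Pearson r of log2(CPM + 1) = 0.838), PXYLP1 (0.830), LOC104971810 (0.811), MAGED1 (0.804) and LOC616111-2 (0.800). TMEM119 averaged 65.5 CPM in NP-HF, 52.1 in NP-SF, 55.2 in NP-IF, 32.6 in P-HF and 48.0 in P-SF, the same ends of the order as CILP. Of the 8 other matrix genes above that minimum, SPARC came closest (r = 0.69, rank 165) and THBS1 was at -0.05, while THBS2 averaged less than the minimum and was not compared. With group means removed the 5 values ran from 0.459 to 0.673, so part of the likeness lay in the order of the groups.

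Infertile heifers were sampled without pregnancy and took no part in the contrasts that chose the genes, although the groups they are compared with did. CILP was 1.47-fold lower in NP-IF than in NP-HF (log2 -0.56 ± 0.16), and every NP-IF library (4.42 to 6.32 CPM) was below every NP-HF library, as for 0.49% of all genes. This difference was not called (edgeR, adjusted p = 0.842), and over the alternatives the adjusted p ran from 0.378 to 1.0. POSTN was at 14.02 to 26.8 CPM in NP-IF against 17.2 to 47.9 in NP-HF (-0.70 ± 0.36), and THBS1 at 81.5 to 396 against 83.2 to 168 CPM (0.43 ± 0.38). The THBS1 value rested on NP-IF replicate 3 and was -0.02 without it. None of the 10 genes and no gene at all was called (0.0%). Unadjusted, 1070 genes had a p under 0.05, CILP among them as the 1 matrix gene, and DESeq2 called 2 genes, none of them among the 10. Of the 10 genes 9 had negative values, with a median of -0.22.

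Against NP-SF, CILP in NP-IF differed by 0.11 ± 0.16 (edgeR, adjusted p = 0.999) and POSTN by -0.48 ± 0.36, and the ranges of both overlapped. None of the 10 genes and no gene at all was called (0.0%), with 784 genes and none of the 10 at an unadjusted p under 0.05, and DESeq2 called 11 genes, none among the 10. The median over the 10 genes was -0.14. The NP-IF values of CILP therefore overlapped those of NP-SF and not those of NP-HF, and neither difference passed the test.

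In conceptuses, which at this stage are mostly trophectoderm, the 10 genes ranged from abundant to barely detected. FN1 was at 1269 to 6505 CPM and SPARC at 34.0 to 316 CPM over the 27 libraries. THBS1 ranged from 1.45 to 72.5 CPM, FBN1 from 0.999 to 6.28 CPM, FBN2 from 0 to 3.17 CPM and TNC from 0 to 1.10 CPM. CILP, THBS2, ELN and POSTN did not pass the filter on low counts for the class comparison: CILP had 75 reads over all 27 libraries and none in 9 of them, and THBS2 17 reads and none in 18. Endometrium and conceptus RNA was extracted with different reagents, so levels were not tested between tissues.

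SPARC was higher in conceptuses from SF recipients (75.3 to 316 CPM, median 207, n = 10) than from HF recipients (34.0 to 177 CPM, median 127, n = 17), with overlapping ranges. Its log2 fold change was 0.81 ± 0.20, adjusted for a sample sheet inferred from the form of the sample descriptions. SPARC was the 1 called among the 6 genes tested (edgeR, adjusted p = 0.0164), where 3.64% of 15678 genes were called higher and 7.79% either way. The 7 SF and 12 HF recipients are fewer than the libraries. With counts summed per recipient, a fit that also left out the sample sheet, the call was lost (0.65, edgeR adjusted p = 0.114). It was also lost with conceptus length in the fit (1.08, adjusted p = 0.0962), as it was in the same 20 libraries without that term (0.87, adjusted p = 0.152). Within sample sheets SPARC was called on the first (0.65, adjusted p = 0.0458) and not on the second, which held 7 libraries (1.2, adjusted p = 0.818). HF conceptuses classed as short held 34.0 to 139 CPM and long ones 112 to 177 CPM, so SF libraries overlapped both and 3 short HF libraries lay below every SF library. Some recipients gave both a long and a short conceptus. Their long and short values were 138.9 and 71.5, 112.3 and 120.2, 138.7 and 139.1, and 139.1 and 94.3 CPM, with no common direction.

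FN1 was at 1405 to 6505 CPM (median 3302) in SF and 1269 to 4351 CPM (median 2380) in HF conceptuses (0.55 ± 0.21, edgeR adjusted p = 0.103). FBN2 (0.98 ± 0.50), THBS1 (0.59 ± 0.54), TNC (0.33 ± 0.59) and FBN1 (0.24 ± 0.25) were not called. The median over the 6 genes was 0.57, against 0.01 over all genes. Of the other microfibril genes, 17 were tested and 3 were called higher in SF conceptuses: MFAP5 (1.66 ± 0.38), MFAP2 (1.34 ± 0.36) and LOXL2 (0.71 ± 0.22). Over all genes 3.64% were called higher. Of the other matricellular genes, 10 were tested and NOV (CCN3) was called higher (0.94 ± 0.25). Other lists had calls in the other direction. Of 11 stromal markers tested, 3 were called lower and none higher (median -1.115): PDGFRB (-1.855 ± 0.398), NR2F2 (-1.128 ± 0.295) and DCN (-2.001 ± 0.61). Of 11 TGF-beta, BMP and IGF genes, TGFB3 was called lower (-2.407 ± 0.571) and BMP7 higher (0.612 ± 0.146). Over all genes 7.79% were called either way.

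**Figure D4:**
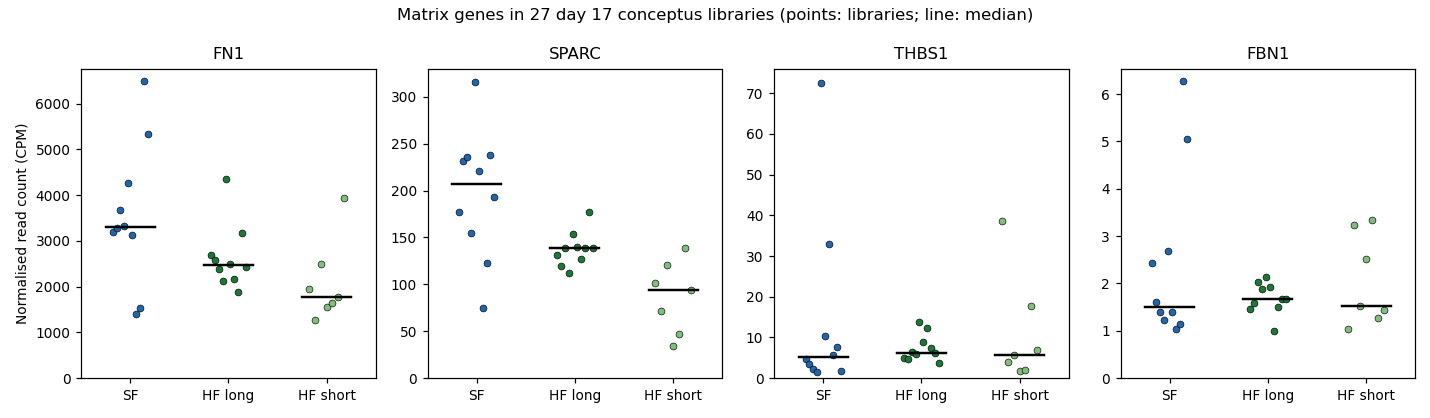
Normalised read counts (CPM, linear axes from 0) of FN1, SPARC, THBS1 and FBN1 in the 27 day 17 conceptus libraries, from SF recipients and from long and short conceptuses of HF recipients, with points for libraries and a line at the median. SPARC medians were 207, 139 and 94.3 CPM in that order, with overlapping points.

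Conceptus length was given for 20 conceptuses from 1.2 to 17 cm, and none of the 7 genes tested against it was called (0.0% of 17196 genes called by edgeR, 1905 at an unadjusted p under 0.05 and none of the 7, and 33 called by DESeq2). The second sample sheet held only conceptuses of 1.2 to 4 cm, so the sheet covariate is partly confounded with length. Without that covariate 400 genes were called, and none of the 7. The fit therefore does not show that length has no part. The slope per doubling of length was 0.14 ± 0.21 (log2) for SPARC, -0.71 ± 0.38 for THBS1, -0.44 ± 0.42 for FBN2 and -0.29 ± 0.20 for FBN1. It was -0.996 ± 0.57 for POSTN, which passed the filter in these libraries but had 151 reads over all 27, -0.40 ± 0.53 for TNC and -0.07 ± 0.21 for FN1.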

How the data were processed

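The authors deposited whole-number counts of reads per gene for 52 libraries, not normalized, with 31651 named genes and 1020 empty lines, which were left out. HISAT2, StringTie, edgeR and the build UMD3.1 are named per the submitters' processing notes. Neither versions nor the use of strand in counting were given in the sources used here. The labels' protocols name a stranded kit. THBS1 overlaps FSIP1, and FBN1, FN1 and TNC overlap non-coding genes, on the RefSeq assembly ARS-UCD2.0, so their read assignment is uncertain. All 10 symbols matched that table, which was used for names only.

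Columns were matched to samples by title. For 20 conceptus samples the description names another animal than the title, and titles were used. Sample sheets (20 and 7 libraries) are not recorded as such. They were inferred from the form of the descriptions, matched to titles by animal number and length.

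Genes were filtered with filterByExpr (minimum count 10, total 15), scaled by TMM and tested with edgeR's quasi-likelihood test, Benjamini-Hochberg adjusted, over all 25 endometrium libraries in 5 groups, or over conceptuses with sample sheet as covariate. SE values are those implied by each fold change and its test. Conceptus p-values treat conceptuses of 1 recipient as separate samples. Scripts were tested on simulated data. CPM were computed from the deposited counts. The tools were DESeq2 1.42.0, edgeR 4.0.16 and limma 3.58.1 in R 4.3.3.

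The members and lists were chosen with earlier results of these data known. Named were the 10 genes, up to 4 called genes of each list per comparison by smallest p, and the 5 genes most like CILP. Alternatives were DESeq2, limma-voom, RLE scaling, other filters, fewer samples and, for conceptuses, other covariates and sums per recipient.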

Additional observations from a re-analysis of the deposited data

Results flagged for a closer look

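In 64 groups of values of single genes examined for a library far from the others, 6 had one, and chance alone flags about 1 group in 20. FBN1 stood at 134.8 CPM in P-SF replicate 4, against 84.9 to 91.2 CPM in the other 4 libraries. THBS1 accounted for 4 of the 6: NP-HF replicate 3 at 83.2 CPM against 148 to 168 CPM, P-SF replicate 5 at 233.7 CPM against 136 to 162 CPM, the SF conceptus replicate 5 at 72.5 CPM against 1.45 to 32.9 CPM, and the short HF conceptus replicate 1 at 38.5 CPM against 1.81 to 17.6 CPM. FN1 stood at 4351 CPM in the long HF conceptus replicate 5, against 1884 to 3173 CPM in the others.

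The CILP pregnancy change differed between SF and HF heifers by 1.38 (log2) in a test of the difference itself, a contrast that was used to choose the genes.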

How the results depend on the processing

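The count of matrix genes called in P-HF against NP-HF stayed between 5 and 8 over 17 alternatives (5 to 7 with 1 library left out), and CILP, FBN2, THBS2, POSTN and SPARC were called in each. In P-SF against NP-SF, 2 matrix genes were called with DESeq2 and with only the groups compared. The class difference of CILP lost its call (0 matrix genes, 0 genes) with limma-voom, without the filter and with only the groups compared, and with 1 library left out 0 to 1 were called. In P-SF against P-HF, 1 matrix gene was called with DESeq2 and without P-HF replicate 1 and P-SF replicate 5, and 0 to 1 with 1 library left out.

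Counts over all genes moved more. In P-SF against NP-SF they were 798, 1199 with DESeq2, 508 without P-HF replicate 1 and P-SF replicate 5, and 425 to 845 with 1 library left out. For the class difference they were 1, 2 with DESeq2, 45 without those libraries and 0 to 1 with 1 left out, and for P-SF against P-HF 0, 96, 634 and 0 to 116. The setting without those libraries favours a class difference by the way they were picked. In NP-SF against NP-HF, NP-IF against NP-HF and NP-IF against NP-SF they were 0, and 1, 2 and 11 with DESeq2, and NP-IF against NP-HF gave 0 to 1 with 1 library left out. For conceptus class 1222 genes were called, 1930 with DESeq2 and 173 summed per recipient without the sheet covariate. In the second sample sheet alone 0 genes were called, as in libraries with a length (0), and 1 with length as covariate, and 0 matrix genes in these 4. The second sheet alone and the length settings were chosen after seeing the data. For length, 0 genes were called, 33 with DESeq2, 3 without the filter, 400 without the sheet covariate and 5 with a slope on cm.

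Directions turned in uncalled values. With 1 library left out, P-SF against NP-SF ran from -0.13 to 0.02 for ELN and -0.06 to 0.13 for FBN1, and P-SF against P-HF from -0.27 to 0.13 for THBS1, -0.08 to 0.73 for THBS2 (0.91 without P-HF replicate 1 and P-SF replicate 5) and -0.02 to 0.28 for TNC. THBS1 in NP-IF against NP-HF ran from -0.02 to 0.62. In conceptuses by class, THBS1 was -0.02 with limma-voom and -0.51 on the second sheet alone, TNC -0.05 on the second sheet alone, and FBN1 -0.04 on the first. The slope on conceptus length of FN1 was 0 with limma-voom and 0.08 on the first sheet alone, and that of TNC 0.06 without the sheet covariate. Likeness to CILP with group means removed was 0.516 for TMEM119, 0.527 for PXYLP1, 0.562 for LOC104971810, 0.459 for MAGED1 and 0.673 for LOC616111-2, and Spearman's rho was 0.662 for LOC104971810 and 0.661 for LOC616111-2. The cause of these shifts was not tested, beyond fewer libraries where some were left out. Counts of 12 to 50 reads limit THBS2 in P-HF.

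No paired test was made: no animal or recipient is in both groups of any comparison tested between groups, and replicate numbers come from accession order. Some HF recipients gave both a long and a short conceptus, and long was not tested against short. Length was not fitted within recipients.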
